A study of Hernandia nymphaeifolia with 9 samples.

Results

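The leaf transcriptome of Hernandia nymphaeifolia seedlings after 7 days of salt water was compared with that of seedlings kept in fresh water. The comparison used 6 of the 9 libraries of the series, 3 control (labelled CK) and 3 treated with 300 mM NaCl for 7 days, chosen by their labels. Each library came from the leaves of 1 seedling that was 2 years old. In both groups water stood up to the branches for 3 of every 12 h, fresh water in control and saline water in the treated group. The labels do not give the sampling day of the control seedlings, so days spent in the experiment and days of salt cannot be told apart. The 3 remaining libraries, 300 mM NaCl for 14 days, entered the choice of genes tested, the scaling and the estimate of the spread. They are printed beside some values. Per the labels each salt level had 3 seedlings, so the 7 d and 14 d libraries may come from the same plants.

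Hernandia nymphaeifolia is a tree of tropical shores that grows at the landward side of mangroves. In plants, salt in the root zone first lowers the water potential and then lets sodium and chloride build up in the leaves. Leaves are known to answer with abscisic acid signalling, closure of stomata, synthesis of compatible solutes, pumping of sodium into vacuoles and removal of reactive oxygen, while growth and photosynthesis are reduced. The deposited rows carry assembly numbers without gene names, so none of these pathways, and no marker of leaf tissue, could be looked up here. The genes below are described by level, size of change, seedling and assembled relatives.

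Rows were summed per assembled gene, the part of the identifier before the isoform number, which turned 416949 transcripts into 315331 genes. Total estimated counts were 13925733 to 14201943 in the control libraries and 13166552 to 13962234 in the 7 d libraries. Between 183972 and 192037 genes had a count in a control library, and 180004 to 190224 in a 7 d library. Of all genes, 62564 had enough counts to be tested, and these held 97.4 to 97.8% of the counts of the 6 libraries. Levels are given as CPM, the counts scaled to a common library total. CPM are not divided by transcript length, so the abundance of a gene here means the counts it received and not its number of molecules.

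After 7 days of salt the leaf transcriptome differed from control in both directions. With edgeR's quasi-likelihood test at a Benjamini-Hochberg adjusted p below 0.05, 15765 of 62564 genes were called, or 25.2%. Of the tested genes 7099 rose (11.3%) and 8666 fell (13.9%). The median fitted log2 change was 1.23 among the genes that rose, -1.25 among those that fell and -0.02 over all genes tested. Leaf RNA of whole organs was measured, so fewer cells of a type and less RNA per cell cannot be told apart. Omitting any single library of the 9 gave 11348 to 18133 called genes, the lowest without 7 d replicate 3 and the highest without 14 d replicate 3.

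By fitted change, the falling genes were more numerous at moderate size and the rising genes at large size. A change of 2-fold or more was called upwards for 4469 genes and downwards for 5757, which are 7.14% and 9.2% of the genes tested. At 4-fold or more the counts were 1679 up and 1755 down, 2.68% and 2.81% of the genes tested. At 8-fold or more they were 764 up and 598 down (1.22% and 0.956%), and at 16-fold or more 370 up and 275 down (0.591% and 0.44%). No test was made of the difference between the directions. Median levels were 0.174 CPM in control for the genes up 8-fold or more and 0.151 CPM at 7 d for those down. Both lie below the 0.217 to 0.237 CPM that 3 counts were worth in the 6 libraries. Many of these large folds are thus no measured sizes. At 16-fold or more, 100 of the rising and 53 of the falling genes were at 5 CPM or more. The 3 libraries of a group all lay above the 3 of the other for 25449 genes, 40.7% of those tested, and 15443 of the called genes were among them. The remaining 322 called genes had overlapping groups.

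**Figure D1:**
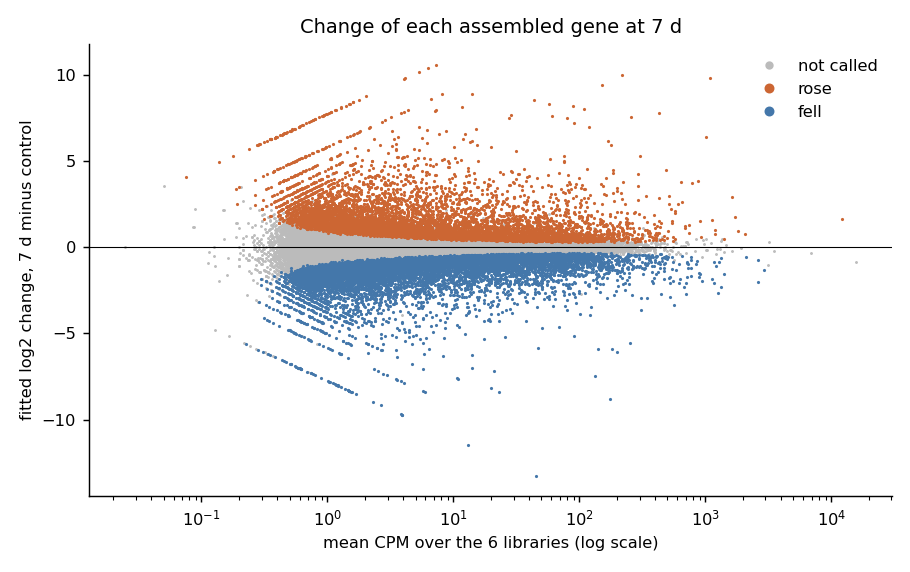
Fitted log2 change of each tested gene at 7 d against control (vertical axis) over its mean CPM in the 6 libraries (horizontal axis, log scale), with called genes in orange (7099 rose) and blue (8666 fell). The straight lines of points at the left belong to genes with no or very few counts in a group, whose fitted change is no measured size.

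The genes that rose took up 11.6, 12.1 and 12.9% of all counts in control replicates 1, 2 and 3, and 28.1, 25.3 and 27.7% in 7 d replicates 1, 2 and 3. Those that fell held 30.2, 27.4 and 29.1% in the controls and 13.3, 14.6 and 13.6% at 7 d. Members of both lists were selected by the same test on the same libraries, so the shares describe the size of the shift and do not test it. The 14 d libraries entered the choice of genes tested, the scaling and the spread, but their levels were not part of the comparison. In them the genes that rose held 21.6 ± 1.06% (SD, n = 3) and those that fell 19.4 ± 1.45% (SD, n = 3). The 764 genes that rose 8-fold or more together took 0.151 ± 0.0209% (SD, n = 3) of all counts in control and, at 7 d, 2.84 ± 0.327% (SD, n = 3). The 598 genes that fell 8-fold or more went from 0.942 ± 0.118% (SD, n = 3) to 0.0586 ± 0.0105% (SD, n = 3).

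Genes with more counts were called more often. Among genes with a mean under 1 CPM over the 6 libraries 16.1% of 14711 were called, at 1 to 5 CPM 21.9% of 27658 and at 5 to 20 CPM 34% of 10154. At 20 to 100 CPM 37.1% of 8113 genes were called, at 100 to 500 CPM 43.9% of 1807 and at 500 CPM or more 65.3% of 121. The share under 1 CPM was 10.1% without 7 d replicate 1 and 9.24% without 7 d replicate 3. Both directions took part in each band: rising genes made up 47.2% of the calls under 1 CPM, 42.7% at 1 to 5 CPM, 44.1% at 5 to 20 CPM, 48.3% at 20 to 100 CPM, 48.9% at 100 to 500 CPM and 41.8% at 500 CPM or more.

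The size of the change did not follow the share of calls through most of the range. Size was taken as the root mean square log2 difference between the groups over all genes of a band, called or not, after the part from the spread between seedlings was subtracted. The log2 values carried a prior count of 2, which makes differences and spread smaller, most of all at low counts. It was 0.78 under 1 CPM, 0.82 at 1 to 5 CPM, 0.93 at 5 to 20 CPM, 0.81 at 20 to 100 CPM and 0.98 at 100 to 500 CPM. Over the same bands the root mean square SD within groups was 0.50, 0.41, 0.32, 0.23 and 0.29 log2 units. From under 1 CPM to 20 to 100 CPM the size of the change lay between 0.78 and 0.93. Over these bands the SD within groups was lower at each step and the share of calls went from 16.1 to 37.1%. Whether the spread set the share of calls was not tested. Under 1 CPM a gene could have enough counts to be tested through 1 group alone. The size and the share of calls there are thus in part set by the change. At 500 CPM or more the size was 1.78, with an SD within groups of 0.34.

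The 121 genes at 500 CPM or more also had the highest median absolute log2 difference over all genes of a band, called or not. It was 0.85, against 0.31 at 20 to 100 CPM and 0.33 at 100 to 500 CPM. It was 0.47 under 1 CPM, 0.41 at 1 to 5 CPM and 0.38 at 5 to 20 CPM. Unlike the size above, this median still contains the spread between seedlings. A gene can enter the band of 500 CPM or more by a high level in 1 group alone, so this band is in part set by the change. With bands set by the control mean the size in the band was 1.23, and 10 of 129 genes rose and 76 fell. With bands set by the 14 d libraries, which were salt-treated too, 117 genes had 500 CPM or more and the size was 1.81. Of the 121 genes, 23 had a control mean under 500 CPM, 35 a 7 d mean under 500 CPM, and 63 were at 500 CPM or more in both groups. Of these 63, 25 were called (39.7%), against 43.9% in the band of 100 to 500 CPM, and of the other 58 genes 54 were called. A called change of 2-fold or more was found for 52 of the 121 genes, 23 up and 29 down. No test was made between bands.

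**Figure D2:**
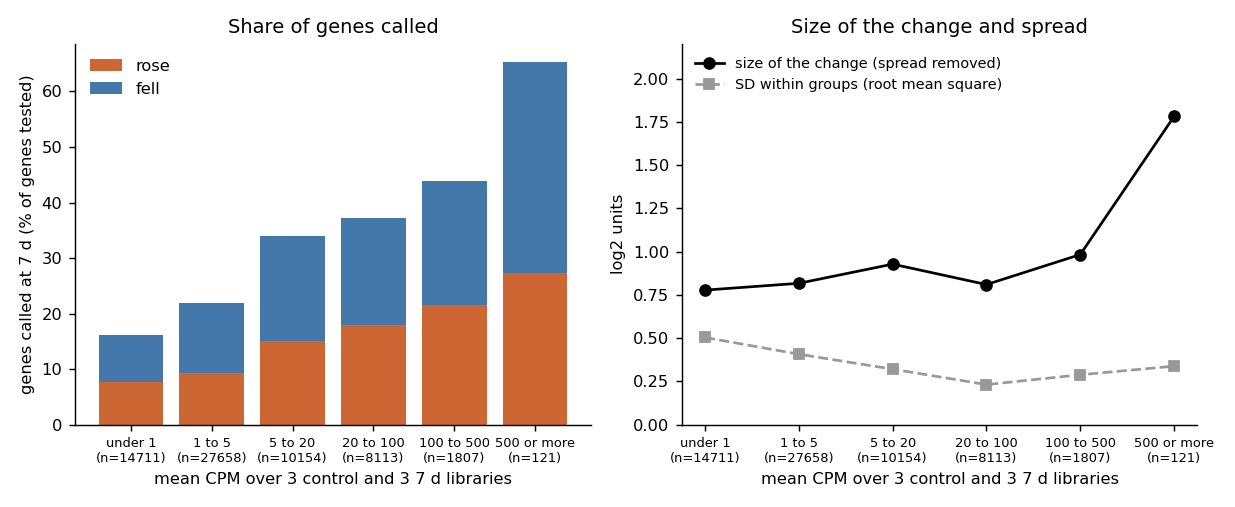
Left, the share of tested genes called at 7 d in 6 bands of mean CPM, split into genes that rose (orange) and fell (blue), from 16.1% under 1 CPM to 65.3% at 500 CPM or more. Right, in log2 units, the root mean square change after removal of the spread (black) and the root mean square SD within groups (grey): the change lies between 0.78 and 0.98 in the first 5 bands and at 1.78 in the last.

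The number of genes that held 50% of the counts did not differ between the groups beyond the spread between seedlings. Ranked by count, 2163, 2398 and 2371 genes held 50% of the counts in control replicates 1, 2 and 3. The same share was held by 2275, 2400 and 2317 genes in 7 d replicates 1, 2 and 3. The groups overlapped, with 2311 ± 129 genes (SD, n = 3) in control and 2331 ± 63.6 genes (SD, n = 3) at 7 d. The difference of 20 genes had an exact two-sided permutation p = 0.8, in a design whose smallest possible p is 0.1. Its sign was not fixed, being -53.8 genes without control replicate 1, -14.7 without 7 d replicate 2 and 63.7 without control replicate 2. These genes were 1.23 ± 0.0731% (SD, n = 3) of the genes with a count in control and 1.25 ± 0.0479% (SD, n = 3) at 7 d.

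Other shares of the counts gave overlapping numbers as well. A share of 25% of the counts was held by 399 ± 60.5 genes (SD, n = 3) in control and 437 ± 10.3 (SD, n = 3) at 7 d (exact permutation p = 0.5). For 75% of the counts 7437 ± 252 (SD, n = 3) and 7338 ± 180 genes (SD, n = 3) were needed (exact permutation p = 0.5), and for 90% 18425 ± 959 (SD, n = 3) and 18054 ± 567 (SD, n = 3), with an exact permutation p = 0.7. The 100 leading genes of each library took 14.6 ± 1.62% (SD, n = 3) of all counts in control leaves and 13.8 ± 0.0755% (SD, n = 3) at 7 d (exact permutation p = 0.5). Over the 11 measures of this kind the Benjamini-Hochberg adjusted permutation p was 0.9 for each. The leading gene of control leaves, TRINITY_DN4062_c0_g2, differed between seedlings and took 2.80 and 2.52% of the counts in control replicates 1 and 2 but 0.453% in control replicate 3. It took 0.786, 1.45 and 1.03% in 7 d replicates 1, 2 and 3, and did not pass the test (log2 difference -0.84, edgeR quasi-likelihood adjusted p = 0.231).

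**Figure D3:**
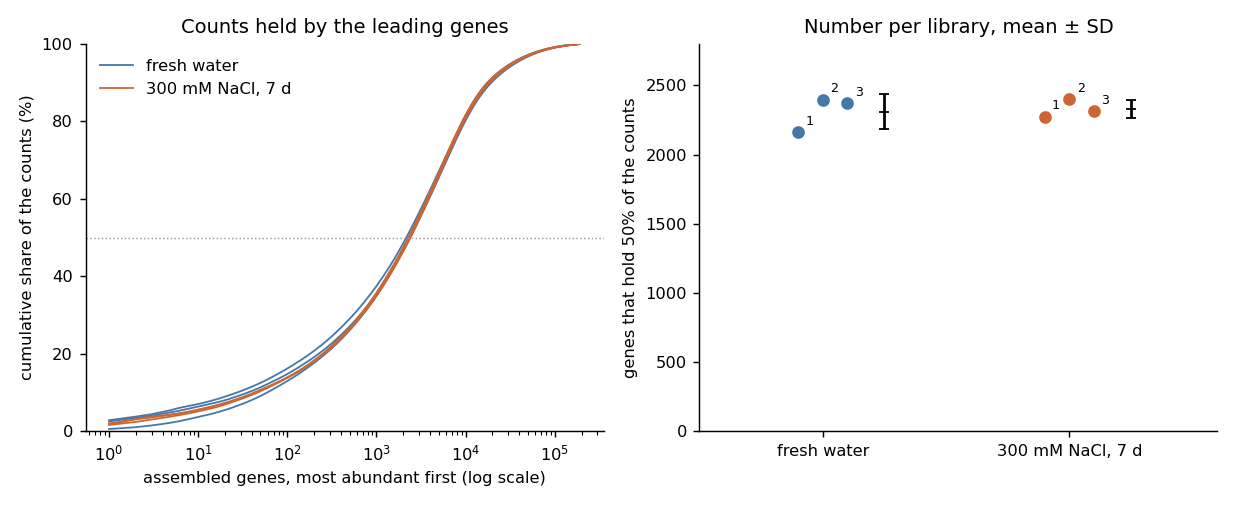
Left, cumulative share of the counts (vertical axis) over the number of assembled genes taken in order of their counts (horizontal axis, log scale), 1 line per library, with control in blue and 7 d in orange. Right, the number of genes that hold 50% of the counts, with 1 numbered point per replicate and the mean ± SD in black: 2163 to 2398 in control and 2275 to 2400 at 7 d.

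The genes that made up these 50% changed between the groups. From mean shares per group, 2337 genes held 50% of the counts in control and 2346 at 7 d, and 1810 were in both sets, 77.4% of the control set and 77.2% of the 7 d set. Between single libraries, the leading sets of a control and a 7 d library had 55.4 to 66.5% of their united genes in common. Within a group the overlap was 76.4 to 88.3%. Each between-group pair thus shared less than each within-group pair, and the mean difference of 20.9 percentage points had an exact permutation p = 0.1, the smallest that 3 libraries against 3 can give. Of the 527 genes that left the set at 7 d, 420 were called and each of these fell. Of the 536 that entered it, 535 were tested, 382 were called and each of these rose. Leaving or entering the set fixes the direction, so these counts are descriptions. The 527 genes went from 6.33% to 3.02% of the counts and the 536 from 3.03% to 7.45%. The 1810 shared genes held 43.7% in control and 42.6% at 7 d. Of them 639 were called (35.3%, beside 25.2% of all genes tested), of which 301 rose and 338 fell. The called share was 37.1% at 20 to 100 CPM, 43.9% at 100 to 500 CPM and 65.3% at 500 CPM or more. Beside these bands 35.3% is not raised, and membership of both sets favours small changes.

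Counted over all genes, 19.5 to 26.1% of the counts were placed on other genes between a control and a 7 d library. This measure is the sum of absolute differences in the genes' shares, divided so that libraries with no gene in common would differ by the whole. Within control it was 10.002 to 13.3% and within 7 d 7.41 to 9.94%. The mean was 22.5% between groups and 9.88% within groups, and the difference of 12.6 percentage points had an exact permutation p = 0.1, again the smallest possible. Omitting any 1 of the 6 libraries gave 11.4 to 14.0 points. By band, pairs between and within groups differed on average by 5.18 and 1.84% of all counts at 500 CPM or more, 6.26 and 2.35% at 100 to 500 CPM, 6.17 and 2.60% at 20 to 100 CPM, and 0.315 and 0.224% under 1 CPM.

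**Figure D4:**
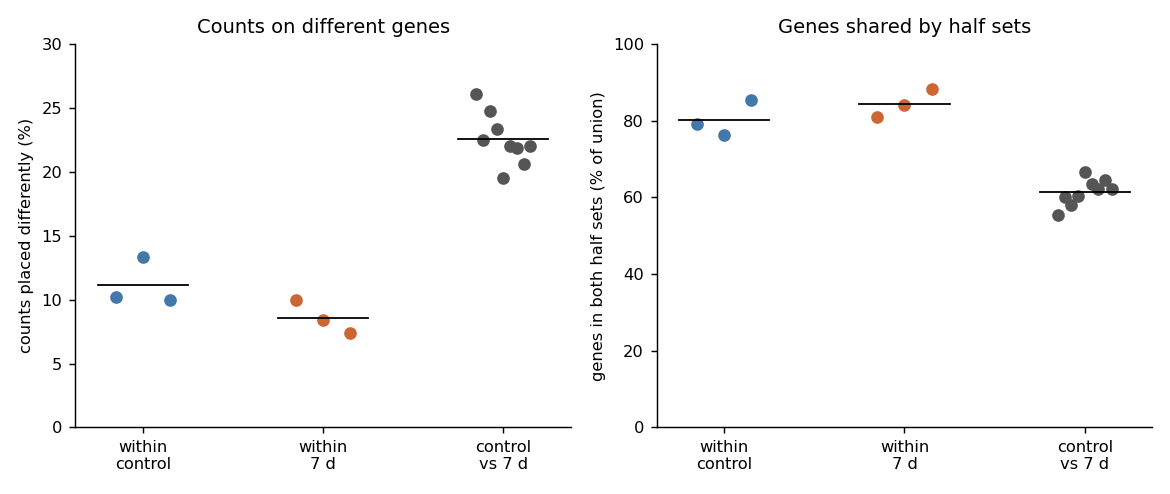
Each point is a pair of libraries, within control (blue), within 7 d (orange) or between the groups (grey), with the mean as a line. Left, the share of counts placed on different genes in %, which is 7.41 to 13.3 within groups and 19.5 to 26.1 between them. Right, the genes found in both sets that hold 50% of the counts, as % of their union, 76.4 to 88.3 within groups and 55.4 to 66.5 between them.

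Among the called genes, few carried much of the summed change, but counts were concentrated on few genes in general. On average 2169 of the 62564 tested genes held 50% of the counts of tested genes in control, and 2196 at 7 d. Genes that were not called are left out of the sums below. Of the summed rise in mean CPM, 50% came from 185 of the 7099 genes that rose, 2.61% of them, and 50% of the summed fall came from 271 of the 8666 that fell, 3.13%. By band, genes at 100 CPM or more supplied 32.9% (100 to 500 CPM) and 26.9% (500 CPM or more) of the summed rise and 32.0% and 24.0% of the summed fall. The 1121 rising genes under 1 CPM and the 2581 at 1 to 5 CPM supplied 0.637% and 3.799% of the rise. The 1254 and 3470 falling genes of these bands supplied 0.689% and 4.64% of the fall. The list of 10 leading genes changed accordingly: 5 of the 10 leading genes of control leaves were also among the 10 of 7 d leaves, whereas pairs of libraries of 1 group shared 7 to 9 and pairs across the groups 3 to 7. Among the 100 leading genes, libraries of different groups shared 46 to 56 and libraries of 1 group 82 to 91.

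The gene that gained the most counts was TRINITY_DN7280_c0_g3, with 6775, 5081 and 5728 CPM in control replicates 1, 2 and 3. It reached 16707, 17019.9 and 20905 CPM in 7 d replicates 1, 2 and 3, so that every salt library lay above every control. The fitted log2 change was 1.64 ± 0.16 (SE; edgeR quasi-likelihood adjusted p = 1.12e-05), and its rank went from 3 to 1. It supplied 8.14% of the whole summed rise. Its 3 tested relatives of the same assembly component, which may share sequence with it, were not called. At 14 d it stood at 9636 ± 1587 CPM (SD, n = 3).

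TRINITY_DN6450_c0_g1 was at 358, 351 and 429 CPM in the controls and at 3159, 2773 and 2669 CPM at 7 d. Its log2 change was 2.92 ± 0.29 (SE; edgeR quasi-likelihood adjusted p = 1.43e-05), and its rank by counts went from 201 to 6. The rise sat in 1 isoform: i83 held 86.6% of the gene's counts in control and 98.8% at 7 d, while i62 had a log2 change of -0.62 (adjusted p over transcripts 0.0283 by edgeR's quasi-likelihood test). TRINITY_DN568_c0_g3, with 1 deposited isoform, went from 23.6, 25.1 and 22.6 CPM to 2571, 1588 and 1786 CPM, a log2 change of 6.38 ± 0.29 (SE; edgeR quasi-likelihood adjusted p = 1.06e-07). Its 3 tested component relatives rose as well but by far less, g1 by 0.52, g2 by 0.97 and g4 by 0.36 on the log2 scale. Reads shared within the component may be counted for either gene. TRINITY_DN1496_c0_g3 rose from 870.2, 695 and 776 CPM to 2679, 2235 and 2959 CPM, with a log2 change of 1.75 ± 0.17 (SE). Its relative TRINITY_DN1496_c0_g2 also passed the test, with a log2 change of -1.84 and mean levels of 10.1 CPM in control and 2.80 CPM with salt.

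One gene passed from a low level to the leading genes. TRINITY_DN7596_c0_g5 was at 0.230, 3.69 and 3.19 CPM in control leaves and at 2375, 1136 and 2955 CPM at 7 d. Its rank by counts went from 29704 to 10, with a fitted log2 change of 9.81 ± 1.18 (SE; edgeR quasi-likelihood adjusted p = 5.98e-05). The 4 other tested genes of its component were not called. In the 14 d libraries it was at 201, 46.9 and 1032 CPM, above every control and below every 7 d library.

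Among called genes without overlap between the groups, those that lost the most counts came from the top of the control leaves. A large loss of counts needs a high level in control, so this origin follows from the choice. TRINITY_DN4062_c0_g2, which did not pass the test, had a larger fall in mean level, from 20118 to 11215 CPM. TRINITY_DN3923_c1_g1, at rank 5 in control leaves by counts, was at 5069, 3419 and 4056 CPM in control and at 977, 1114 and 975 CPM at 7 d. It fell by 2.03 ± 0.16 on the log2 scale (SE; edgeR quasi-likelihood adjusted p = 2.34e-06) to rank 41. TRINITY_DN1150_c0_g1, at rank 6, went from 5499, 3375 and 3646 CPM to 1542, 2138 and 1317 CPM and fell by 1.33 ± 0.23 on the log2 scale (SE). One isoform, i6, held 99.2% of its counts in control and 97.7% at 7 d. Its low relative TRINITY_DN1150_c0_g2 had 0.942 to 1.15 CPM in control and no count at 7 d.

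Among the further losses, TRINITY_DN31859_c0_g1 was at 2636, 1734 and 2153 CPM in control and at 358, 362 and 337 CPM at 7 d, and fell by 2.63 ± 0.17 on the log2 scale (SE). TRINITY_DN1967_c0_g2 went from 2219.7 ± 491 CPM (SD, n = 3) to 443 ± 26.4 CPM (SD, n = 3) and fell by 2.33 ± 0.16 on the log2 scale (SE), with its 2 isoforms at 67.5 and 32.5% of its counts before and 65.5 and 34.5% after. TRINITY_DN3845_c2_g2 and its component relative g1 fell together, by 2.05 ± 0.17 and 1.83 ± 0.15 on the log2 scale (SE). Their levels were close in both states, 1878 ± 415 and 1775 ± 292 CPM (SD, n = 3) in control, 452 ± 47.9 and 499 ± 37.1 CPM (SD, n = 3) at 7 d.

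The largest measured folds upwards, among genes with at least 3 counts in each of the 6 libraries and a mean of 5 CPM or more, began from under 1 CPM in 3 of 4 cases. TRINITY_DN15921_c0_g1 was at 0.768, 0.217 and 0.297 CPM in control and at 468, 406 and 437 CPM at 7 d, a log2 change of 9.98 ± 0.88 (SE; edgeR quasi-likelihood adjusted p = 5.61e-06). The 7 d seedlings were alike in this gene, while the 14 d seedlings ran from 127 to 1433 CPM. TRINITY_DN61115_c0_g3 rose from 0.297 to 0.614 CPM in control to 350.3, 129.9 and 417 CPM at 7 d, with a log2 change of 9.44 ± 1.11 (SE). TRINITY_DN4757_c0_g2 rose from 0.223 to 0.461 CPM to 118, 64.6 and 164 CPM, with a log2 change of 8.33 ± 0.52 (SE). Its component relative g5 rose too, by 4.18 on the log2 scale, and g3 fell by 0.63. TRINITY_DN7596_c0_g5, described above, was the remaining gene of this group.

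Downwards, the same rule led to a family of assembled relatives. TRINITY_DN511_c0_g2 was at 534, 332 and 302 CPM in control leaves and at 4.41, 6.43 and 6.41 CPM at 7 d, and fell by 6.08 ± 0.27 on the log2 scale (SE; edgeR quasi-likelihood adjusted p = 1.06e-07). TRINITY_DN511_c0_g1 went from 399, 219.9 and 215 CPM to 2.89, 6.35 and 4.35 CPM and fell by 5.93 ± 0.32 on the log2 scale (SE). The third tested gene of the component, g3, fell from 8.03 ± 2.62 CPM (SD, n = 3) to a single count in 1 of the 3 salt libraries, 0.0760 CPM in 7 d replicate 1. The 9 tested isoforms of g2 and the 5 of g1 were each called as lower in the test over transcripts. In the 14 d libraries g2 was at 12.9, 12.9 and 18.4 CPM and g1 at 6.46 to 8.82 CPM.

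TRINITY_DN7012_c0_g1 was at 122, 67.4 and 88.4 CPM in control and at 0.870 to 1.95 CPM at 7 d, a fall of 5.86 ± 0.58 on the log2 scale (SE). Its relative g4 fell by 2.55 on the log2 scale, and g2 and g3 were not called. The fourth gene, TRINITY_DN19829_c0_g1, rested on 1 seedling. It had 1042 CPM in control replicate 1 and 10.4 and 10.2 CPM in control replicates 2 and 3, against 5.14 to 6.46 CPM at 7 d. Its fitted log2 change was -5.91 with an adjusted p of 0.00848 by edgeR's quasi-likelihood test. Without control replicate 1 these values were -0.82 and 0.00925.

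Some genes had counts in each library of 1 group and none in the other. There were 76 with no count in control, of which 74 were called, and 50 with no count at 7 d, of which 48 were called, beside the 25.2% called over all genes. This rule fixes that the groups do not overlap. The group without counts also cannot have helped such a gene to have enough counts to be tested. The numbers of calls are therefore descriptions. Levels of these genes were low, with medians of 1.14 and 1.56 CPM in the group with counts. A count of 0 in the 3 libraries allows up to 3 counts over the group, 0.0745 CPM in control and 0.0757 CPM at 7 d. TRINITY_DN99656_c0_g3 had 14.0, 10.8 and 19.0 CPM with salt and was by this bound at least 196-fold higher (edgeR quasi-likelihood adjusted p = 0.000442). TRINITY_DN61115_c0_g2, a relative of the g3 gene named above, had 12.7, 5.34 and 19.7 CPM at 7 d and was at least 169-fold higher (edgeR quasi-likelihood adjusted p = 0.00191).

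In the other direction TRINITY_DN6642_c0_g3 had 179, 60.6 and 32.2 CPM in control, no count at 7 d and none at 14 d. The 7 d seedlings were at least 1197-fold lower, with an adjusted p of 8.39e-05 by edgeR's quasi-likelihood test. Without control replicate 1 the bound was 613-fold. Its relatives g1 and g2 fell by 3.23 and 2.04 on the log2 scale. Control replicate 1 was the highest library for the 3 genes, and g1 was at 444 CPM there against 31.3 to 33.3 CPM in the other controls. TRINITY_DN18782_c0_g1 had 46.1 and 32.7 CPM in control replicates 2 and 3 but 0.0768 CPM in replicate 1, no count at 7 d, and 33.3 CPM in 14 d replicate 3. From the control mean the 7 d seedlings were at least 348-fold lower, with an adjusted p of 0.0194 by edgeR's quasi-likelihood test. Control replicate 1 held 1 count and gives no fold. Without control replicate 2 the bound was 217-fold and the adjusted p 0.0520, and without 7 d replicates 1, 2 and 3 it was 0.0607, 0.0535 and 0.0618.

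The genes with the lowest adjusted p in each band from 1 to 500 CPM are given next. At 1 to 5 CPM, TRINITY_DN4761_c0_g1 had 1 count over the 3 control libraries and 343 over the 7 d libraries, a ratio of 349 with a 95% exact interval of 62.1 to 13808 for counting error only. TRINITY_DN18781_c0_g1 had 373 counts in control and 3 at 7 d, a ratio of 122 with an interval of 41.5 to 596. At 5 to 20 CPM, TRINITY_DN3949_c0_g3 rose from 0.375 ± 0.136 CPM (SD, n = 3) to 26.7 ± 2.10 CPM (SD, n = 3), and its relatives g1 and g6 rose by 4.32 and 4.17 on the log2 scale. TRINITY_DN23988_c0_g3 fell from 23.6, 24.8 and 23.2 CPM to 0.760, 0.722 and 0.712 CPM, by 5.01 ± 0.23 on the log2 scale (SE). At 14 d it was at 17.6, 24.6 and 16.1 CPM.

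At 20 to 100 CPM, TRINITY_DN20472_c0_g1 rose from 0.600 ± 0.216 CPM (SD, n = 3) to 163, 75.7 and 120.2 CPM, a log2 change of 7.62 ± 0.35 (SE). TRINITY_DN7546_c0_g1 fell from 162 ± 13.8 CPM (SD, n = 3) to 22.0 ± 2.31 CPM (SD, n = 3), and its 6 tested isoforms had log2 changes of -2.73 to -3.61, while its relative g2 rose by 1.07. At 100 to 500 CPM, TRINITY_DN60_c1_g2 rose from 29.2, 31.9 and 23.8 CPM to 526, 657 and 473 CPM, a log2 change of 4.28 ± 0.19 (SE). Its isoform i4 went from 57.9 to 92.0% of the gene's counts. TRINITY_DN511_c0_g2 was the falling gene of that band.

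Genes with many counts and little difference were present too. TRINITY_DN1046_c0_g1 was at 1962 ± 150.4 CPM (SD, n = 3) in control and 1871 ± 283 CPM (SD, n = 3) at 7 d, at rank 14 in both groups (log2 difference -0.07 ± 0.13 SE, edgeR quasi-likelihood adjusted p = 0.755). TRINITY_DN6546_c0_g1 was at 1737 ± 253 and 1521 ± 127 CPM (SD, n = 3), with a log2 difference of -0.19 ± 0.13 (SE). TRINITY_DN3643_c1_g1 was at 1386 ± 151.4 and 1513 ± 166 CPM (SD, n = 3), with a log2 difference of 0.13 ± 0.14 (SE). These 3 were chosen for a small difference, and missing the test does not show that they are equal.

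**Figure D5:**
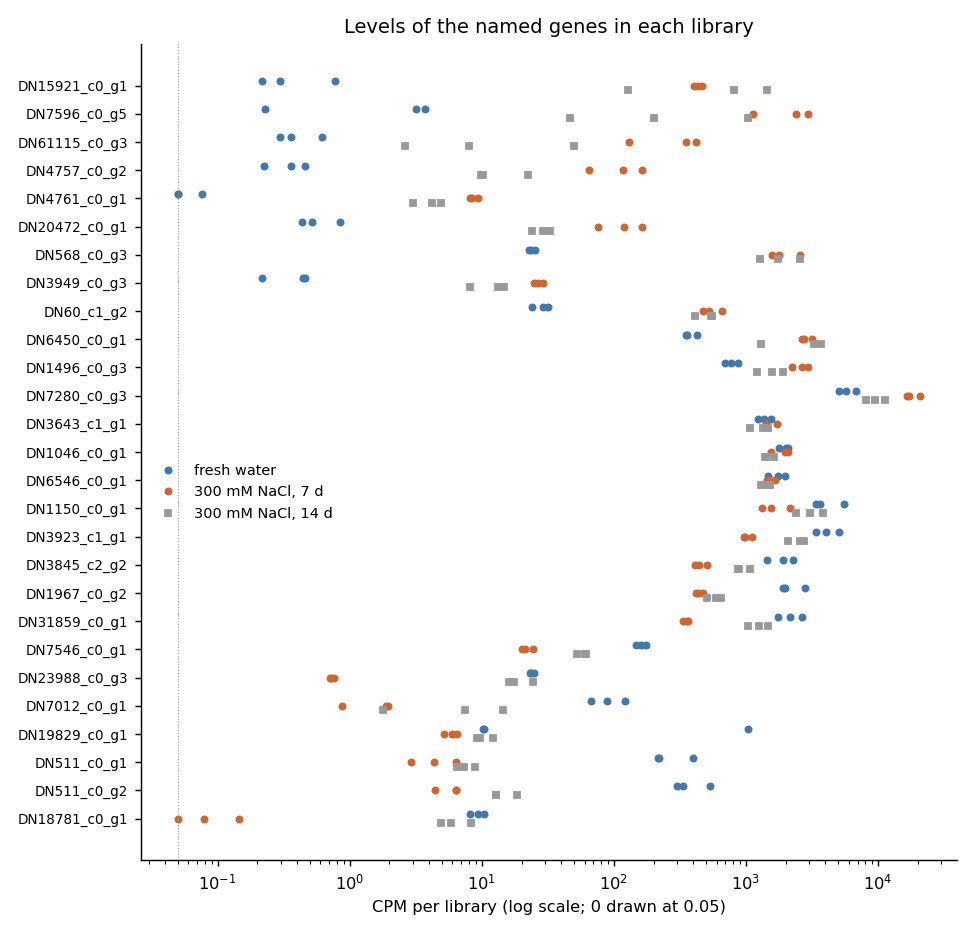
CPM per library (horizontal axis, log scale, with 0 drawn at 0.05) of the 27 named genes that had counts in both groups, ordered by fitted log2 change, with fresh water in blue, 7 d in orange and 14 d in grey squares. The steady genes near the middle overlap between the groups, and TRINITY_DN19829_c0_g1 shows a single control library at 1042 CPM far from the other controls.

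Calls per gene and per isoform did not always go together. Of the 15765 called genes, 77.9% had an isoform called in the same direction and 3477 had no called isoform. Of the 6109 called genes with 2 or more tested isoforms, 1132 had each tested isoform called in the gene's direction and 178 had an isoform called the other way. Among genes not called, 2425 held a called isoform, and 278 of these held isoforms called in both directions. Genes with 8 or more deposited isoforms were called in 31.9% of 1587 cases and genes with 1 in 23.8% of 29264, but their median levels were 25.8 and 1.45 CPM. At 20 to 100 CPM the shares were 34.1% of 748 and 38.4% of 1614, and at 100 to 500 CPM 50.3% of 159 and 44.3% of 300.

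Assembled genes of 1 component can be relatives or fragments of 1 gene, and they are not independent. Such components held 49.2% of the tested genes, of which 26.9% were called, against 23.6% of the genes with no tested relative. Of the 8271 called genes with a tested relative, 3179 had a relative called in the same direction and 1691 one called in the opposite direction.

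The 3 salt seedlings did not differ from control to the same extent. Among the 764 genes that rose 8-fold or more, 7 d replicate 2 was the lowest of the 3 salt libraries for 63.0%, and among the 100 genes that rose 16-fold or more at 5 CPM or more for 75%. Among genes not called it was lowest for 30.8%. Of the counts, 19.5 to 22.5% were placed differently between 7 d replicate 2 and the control libraries, against 21.8 to 26.1% for replicates 1 and 3. Its total count, 13962234, was the highest of the 7 d libraries. Among the controls, replicate 1 was the highest library for 51.3% of the 598 genes that fell 8-fold or more and for 35.1% of the genes not called.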

How the data were processed

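Polyadenylated leaf RNA was made into 9 libraries of DNA nanoballs, per the labels' protocols. The authors deposited 1 estimated count per transcript and library, in whole numbers, with totals that differ between libraries. The submitters' processing notes list FastQC, HISAT2 and Salmon, with no version and no role. Identifiers have Trinity's form, and how the assembly was made is not stated in the labels. Intervals and floors cover counting error only.

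Counts were summed per assembled gene and filtered with edgeR 4.0.16 in R 4.3.3 (minimum count 10, minimum total 15), scaled by TMM and fitted with edgeR's quasi-likelihood model, 1 mean per group over 9 libraries (common dispersion 0.0372). SE were derived from the F statistic. Log2 CPM used a prior count of 2. The test was checked on simulated counts. No pair of replicates was alike within counting noise, with chi-square statistics of 4.93 to 18.0 times their degrees of freedom. The deviations of same-numbered control and 7 d libraries had correlations of -0.20, 0.17 and -0.20. Those of differently numbered ones ran from -0.35 to 0.46. Numbers were not taken as pairs. The labels give no batch.

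Genes named were, among called genes without overlap between the groups, the 5 with the largest rise and fall in CPM, the 4 with the largest log2 change each way (5 CPM or more, 3 counts or more per library), the 2 most abundant without counts in the other group, the lowest adjusted p each way in the bands of 1 to 500 CPM, and 3 abundant steady genes. TRINITY_DN4062_c0_g2, TRINITY_DN8316_c0_g1, TRINITY_DN970_c0_g4 and component relatives were added after their values were seen. The comparison, members and rules were chosen with earlier results of these data known. Also run were limma-voom (limma 3.58.1), DESeq2 1.42.0, other scaling, filters, thresholds and bands, the replicate block, transcripts, thinning, and leaving out libraries. Tables and exact tests used SciPy 1.17.1 and pandas 2.3.3 in Python 3.11.15, and plots matplotlib 3.10.9. Seedlings at 150, 500 and 700 mM NaCl, which the treatment protocol mentions, were not analysed here.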

Additional observations from a re-analysis of the deposited data

How the results depend on the processing

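The 15765 calls became 9893 (4558 up, 5335 down) with a minimum count of 50, where fewer genes were tested, 9073 (3954 up, 5119 down) at an adjusted p under 0.01 and 7216 (3127 up, 4089 down) against a 1.5-fold change. Leaving out each library in turn gave 11348 to 18133 calls, 5147 to 8278 up and 6201 to 9855 down. DESeq2 called 13294 and limma-voom 14755. With the replicate number as a block 15164 genes were called, 14634 of them shared with the fit without it. Whether the numbers pair control with 7 d libraries is not stated in the labels, and the correlations of their deviations are too few to decide it. Same-numbered 7 d and 14 d libraries, which may share plants and entered the spread as independent, had correlations of 0.028, 0.38 and 0.15 of their deviations. For differently numbered 7 d and 14 d libraries they ran from -0.26 to 0.13. Independence of the 7 d and 14 d libraries was not tested. The block ended the call of TRINITY_DN19829_c0_g1 (log2 change -3.89, edgeR quasi-likelihood adjusted p = 0.0774). Without a filter 17417 of 306838 genes were called, and edgeR's prior degrees of freedom became infinite, and the smallest p-value became 0.

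By band, the called shares under 1, at 1 to 5 and at 5 to 20 CPM were 7.08, 11.6 and 21.5% at an adjusted p under 0.01. Against a 1.5-fold change the first 5 bands had 8.63, 10.5, 15.2, 13.7 and 17.8%. The share under 1 CPM was 2.07% without a filter, and that at 1 to 5 CPM was 33.5% with a minimum count of 50. Leaving out each library gave 9.24 to 18.0% under 1 CPM, 15.1 to 24.2% at 1 to 5, 24.4 to 37.5% at 5 to 20, 27.6 to 41.1% at 20 to 100, 33.1 to 48.1% at 100 to 500 and 59.5 to 71.1% at 500 CPM or more. The size of the change was within 1.5 times of its value under the other prior counts, scalings, bands by the 14 d mean and omission of any 1 of the 6 libraries. That margin is wider than the range of 0.78 to 0.98 over the first 5 bands. It therefore cannot tell whether these bands stayed alike in size. With bands by the 14 d mean the first 5 had 0.91, 0.78, 0.87, 0.79 and 0.98.

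The difference in genes that hold 50% of the counts was -30.7 (exact permutation p = 0.7) without the 10 most abundant genes and ran from -53.8 to 63.7 when each library was left out. Of 587 values of the named genes under alternatives, 578 kept direction and side of the threshold. These genes were chosen from the main fit on the same libraries, so this does not describe calls in general. Of all main calls, 45.8% stayed against a 1.5-fold change and 57.3% with a minimum count of 50. Without 1 of the 6 libraries 68.8 to 81.5% stayed, with DESeq2 83.2% and with limma-voom 91.5%. TRINITY_DN19829_c0_g1 and TRINITY_DN18782_c0_g1 lost their call under limma-voom (log2 change -3.01 and -7.25), and the small difference of TRINITY_DN1046_c0_g1 was 0.059 without 7 d replicate 1 and -0.14 without 7 d replicate 2. DESeq2 gave no adjusted p for TRINITY_DN19829_c0_g1. With the 14 d libraries kept out of the fit 15425 genes were called. The bounds of 613-fold and 217-fold, without a control library, were chosen after seeing the data. The cause of these shifts was not tested. Depth limits the lowest genes, since 3 counts were worth 0.217 to 0.237 CPM in the 6 libraries.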

Other observations

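Control seedlings differed from each other in some of the leading genes, which belongs to no comparison of groups. TRINITY_DN8316_c0_g1 was at 10191 and 9529 CPM in control replicates 1 and 2 and at 3414 CPM in control replicate 3. TRINITY_DN970_c0_g4 was at 6289.7, 5229.97 and 1174 CPM in the same libraries. Like TRINITY_DN4062_c0_g2, both were lowest in control replicate 3, and neither passed the test at 7 d. Their 7 d values were 5314 to 6594 CPM and 1789.5 to 2438 CPM.

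Control replicate 1 held more single-library genes than the other 5 libraries. Of 20195 genes with a mean of 5 CPM or more, 19 were at least 8-fold higher in control replicate 1 than in both other controls and 46 at least 8-fold lower. The other control and 7 d libraries had 3 to 12 genes high and 5 to 10 low by this measure. In the 14 d libraries, 2352, 2587 and 2554 genes held 50% of the counts.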
